A study of Arabidopsis lyrata with 12 samples.

Results

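Histone H3 monomethylated at lysine 27 (H3K27me1) was set against mRNA level over the listed genes of young Arabidopsis lyrata leaves. The 2 H3K27me1 libraries and the 1 mRNA library, 3 of the 12 libraries of the series, supplied the values. Enriched domains had to lie over 200 bp or more of a gene, or over a shorter gene in full, for it to count as carrying H3K27me1. By this rule 1923 of 24256 listed genes carried the mark (7.93%, exact 95% interval 7.59 to 8.28%), and 22333 did not. Shares of genes given here hold for the listed genes only. Another 12 genes, inside a single domain of 136.2 kb at the end of scaffold 3 (24306901 to 24443100), were left out by the rule that defined the comparison.

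All plants were strain MN47 with no treatment or mutation, raised in soil with 16 h of light at 22.5 °C, and whole young leaves were taken, so each value averages over the cell types of the leaf. The rest of the series maps H3K4me3, H3K27me3 and methylated DNA (5mC) in the same tissue, together with input libraries, and the domains of these 3 other marks are used here only to sort genes. The deposited data are 1 list of 17701 H3K27me1 domains and 1 table with the mean exon coverage of each gene. No value per replicate was analysed, so no replicate error and no p-value stands beside any difference. The spread given is that between genes (quartiles), between the 8 main scaffolds, or the counting error of a share. The depth of the libraries is unknown. Leaf marker genes were not analysed, because 0 of the 24268 listed identifiers matched the 34365 genes of the RefSeq table for assembly v.1.0.

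H3K27me1 is a mark of silent chromatin in plants. In Arabidopsis thaliana it is deposited by the methyltransferases ATXR5 and ATXR6, is concentrated in pericentromeric heterochromatin and on transposons, and is needed there to keep transposons quiet and to prevent extra rounds of DNA replication. In mammalian cells, by contrast, H3K27me1 has been described along the bodies of transcribed genes. Where the mark lies within plant genes, and how the mRNA of those genes compares with that of their neighbours, is the question the values below address. In bulk leaf tissue, a low value can come from fewer cells that express a gene or from less RNA per cell, and these cannot be told apart.

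Genes with H3K27me1 gave little mRNA. Their coverage ran from 1 to 294 with a median of 1.79 (quartiles 1.01 and 4.11), against a range of 1 to 27356 and a median of 7.70 (quartiles 3.003 and 17.0) in genes without it. The median was 4.30-fold lower with the mark, a log2 ratio of -2.10, and the 95% order-statistic intervals of the medians over genes (1.69 to 1.87 with and 7.55 to 7.87 without) lay far apart. The quartile ranges of the groups overlapped, since the upper quartile with H3K27me1 exceeded the lower quartile without it.

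The low end of the table held many of these genes. The lowest coverage in the table is exactly 1, and 24.9% of the genes with H3K27me1 were listed at it (interval 22.9 to 26.9%), against 6.81% of those without and 8.24% of all listed genes. At the other end, 192 genes with H3K27me1 (9.98%, interval 8.68 to 11.4%) had a coverage of at least 10, against 41.1% of the genes without the mark and 38.7% of all listed genes. The mark therefore lay mostly, but not wholly, on genes with little leaf mRNA.

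The difference was found on each main scaffold. Medians ran from 1.63 to 1.95 with H3K27me1 and from 7.38 to 8.41 without it, and the groups of scaffold values did not overlap. Neighbouring genes were then compared. For 1908 genes with H3K27me1, the nearest gene without it on the same scaffold lay a median of 925 bp away. The marked gene had the lower coverage in 1426 of these pairs (74.7%, interval 72.7 to 76.7%), the same coverage in 45 and the higher in 437, with medians of 1.79 for the marked genes and 7.19 for their neighbours. When the same pairing was made from each gene without the mark to its nearest unmarked neighbour, 50.2% were lower. Both genes of such a pair come from the same group, so lower and higher were bound to be about equally frequent. This share therefore does not test the difference seen for the marked genes. Where both genes of a pair carried H3K4me3, a mark of transcribed genes, the gene with H3K27me1 was the lower in 78.4% of 732 pairs (medians 2.78 and 10.4).

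Genes with and without H3K27me1 also differed in size and in their other marks. Those with H3K27me1 were longer (median span 3277 bp, against 2176 bp). Fewer of them carried H3K4me3 (47.7%, against 81.4%), and more carried 5mC (54.8%, against 7.20%) or H3K27me3, the mark of Polycomb silencing (27.04%, against 16.3%). The part of these features in the difference was not tested. The mRNA values within each of them follow.

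The difference was similar across gene lengths. From the shortest to the longest quartile of spans, median coverage was 1.63, 1.71, 1.76 and 1.87 in genes with H3K27me1. The same quartiles of genes without it had medians of 5.82, 8.30, 8.05 and 8.21. Among genes of 2 to 4 kb, the 732 with H3K27me1 had a median of 1.76 and the 9301 without it 8.22, so the groups lay about as far apart as in the full set.

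The difference was larger among genes with H3K4me3 than among those without it. Among genes that carried H3K4me3, the 917 with H3K27me1 had a median coverage of 2.85 and the 18180 without it 9.68, a log2 ratio of -1.76. Among genes that lacked H3K4me3, the 1006 with H3K27me1 had a median of 1.28 and the 4153 without it 1.66, a log2 ratio of -0.38. In this second group, 38.1% of genes with H3K27me1 and 28.3% of those without were already at the lowest value, which leaves little room below. The median was lower with H3K27me1 on all 8 main scaffolds in both groups. The difference between the groups in the size of the ratio was not tested.

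The difference was smaller among genes with H3K27me3 than among genes without it. With H3K27me3, the 520 genes with H3K27me1 had a median of 1.41 and the 3644 without H3K27me1 1.95. Of these, 33.3% with and 24.6% without H3K27me1 were listed at exactly 1, which leaves little room below. Among genes without H3K27me3, the medians were 1.89 in 1403 genes with H3K27me1 and 9.01 in 18689 without it. Among genes with 5mC, they were 1.89 in 1053 genes with H3K27me1 and 6.62 in 1608 without it, and among genes without 5mC 1.69 in 870 and 7.82 in 20725. The difference was thus seen whether or not 5mC was present.

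In each of the 8 combinations of the other marks the median was lower with H3K27me1, but in 3 of them the intervals of the medians overlapped. With H3K4me3 as the only other mark, the 411 genes with H3K27me1 had a median of 2.05 and the 15362 without it 10.2. With 5mC besides, the median was 5.03 in 297 genes with H3K27me1 and 9.77 in 1050 without it. With H3K4me3 and H3K27me3 but no 5mC, it was 1.83 in 49 genes with H3K27me1 and 4.06 in 1595 without it. With all of these marks together the medians were close, 3.20 in 160 genes with H3K27me1 and 3.81 in 173 without it, and their intervals overlapped (2.59 to 4.82 and 3.04 to 5.19). Among genes without H3K4me3, the medians were 1.46 in 352 genes with H3K27me1 alone and 2.02 in 2061 genes with no mark. With 5mC as the only other mark they were 1.26 in 343 genes with H3K27me1 and 1.85 in 216 without it. With H3K27me3 alone (1.07 in 58 genes with H3K27me1 and 1.32 in 1707 without it) and with H3K27me3 and 5mC (1.14 in 253 and 1.31 in 169) the intervals overlapped, all medians lying close to the lowest value.

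Read from the mRNA side, the share of genes with H3K27me1 fell in steps with coverage. It was 23.9% of the 1998 genes at the lowest value (interval 22.1 to 25.9%), and over deciles of the other genes, low to high, it was 20.4, 14.5, 9.30, 5.26, 4.45, 2.79, 2.92, 2.20, 1.75 and 1.44%. Most of this decline lay below a coverage of 5.96, the upper limit of the fourth decile, and above it the shares of neighbouring deciles had overlapping intervals except between the fifth and the sixth. The mean share of the gene span under the mark followed, from 12.8% at the lowest value to 0.497% in the highest decile. Genes with H3K4me3 gave nearly the same series, with 21.6% at the lowest value and 1.35% in the highest decile. Genes without H3K4me3 had 24.6% at the lowest value, between 10.6 and 16.3% from the third to the ninth decile, and 4.23% in the highest (3 of 71 genes, interval 0.880 to 11.9%), with wide intervals. In the highest decile, 28 of the 139 genes with 5mC carried H3K27me1 (20.1%), against 4 of the 2087 genes without 5mC (0.192%).

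**Figure D1:**
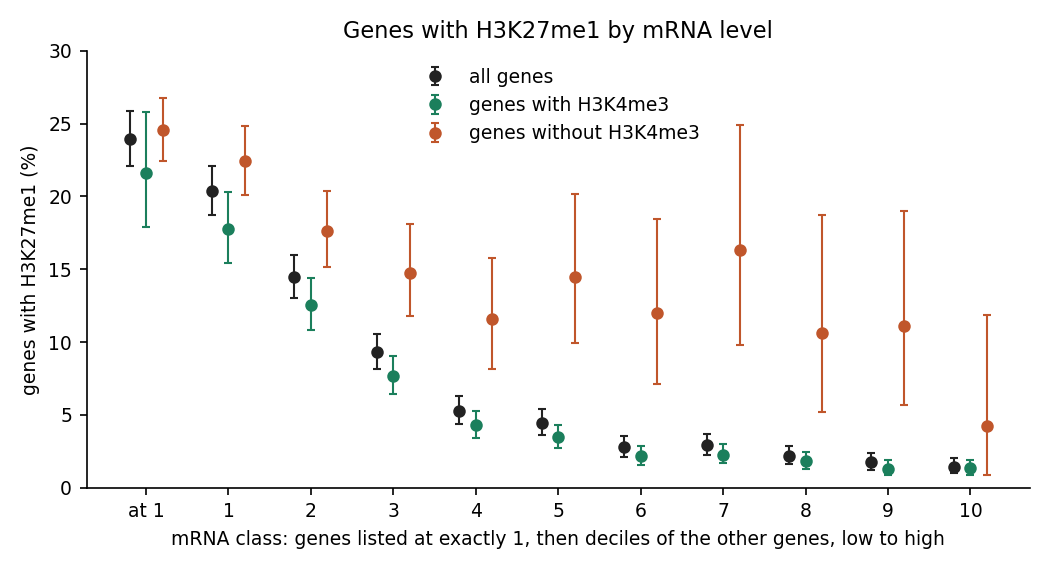
Percent of genes with H3K27me1 (vertical axis) in genes listed at a coverage of exactly 1 and in deciles of the other genes, low to high (horizontal axis), for all genes, genes with H3K4me3 and genes without it. Points are shares and bars exact 95% intervals for counting error; over all genes the share was 23.9% in the lowest class and 1.44% in the highest.

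Coverage declined as more of the gene lay under H3K27me1. Every gene touched by a domain enters this comparison. The 22258 untouched genes had a median of 7.72, and genes with above 0 to 10% of the span under the mark (178 genes) had 4.003. The next classes had 2.45 at above 10 to 25% (432 genes), 1.81 at above 25 to 50% (644 genes) and 1.47 at above 50 to 75% (408 genes). At above 75% but below the whole span the median was 1.30 (267 genes), and genes wholly inside the mark had 1.45 (69 genes). Each step up to 75% went with a lower median, though the intervals of the median at above 25 to 50% (1.63 to 1.92) and above 50 to 75% (1.39 to 1.64) just met. Beyond 75% the classes did not differ beyond their intervals.

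The share of genes listed at exactly 1 followed the same course. It was 6.78% without any overlap, then 10.1, 17.1, 23.3, 30.4, 36.7 and 36.2% in the classes just given. A share of at least 50% of the span was reached by 745 genes, 3.07% of all listed genes. Within the 1923 genes with H3K27me1, the Spearman correlation of coverage with the share of the span was -0.226. This is a description over genes that share 1 mRNA library and 1 domain list. The median was lower with at least 50% than with under 25% of the span on 8 of 8 main scaffolds.

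The decline in the median was large in genes with H3K4me3 and small in genes without it, though this difference was not tested. Among genes with H3K4me3 the medians were 9.69, 5.49, 3.57, 2.44, 2.13 and 1.89 from no overlap to above 75% of the span, and only 7 such genes lay wholly under H3K27me1. Among genes without H3K4me3 the medians were 1.66, 1.81, 1.24, 1.28, 1.19, 1.26 and 1.46 over all 7 classes. The Spearman correlation was -0.221 in the 917 genes with both histone marks and -0.0314 in the 1006 with H3K27me1 but no H3K4me3. H3K4me3 itself became scarcer as the share grew, being present on 81.5% of untouched genes, 68.5% of those with up to 10% of the span under H3K27me1 and 10.1% of those wholly under it.

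The decline was shallower where 5mC was present too. Among genes with H3K4me3 and 5mC, medians were 8.90, 6.24, 5.35, 4.57, 4.06 and 2.04 up to just below the whole span. Among genes with H3K4me3 but no 5mC they were 9.74, 5.21, 2.58, 1.94, 1.50 and 1.52. Both series started close together and differed most between 10 and 75% of the span, where genes with 5mC stood higher. The genes with 5mC were also longer in these middle classes, with median spans of 4696 bp at above 25 to 50% against 2804 bp without 5mC. This difference between the series was not tested.

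**Figure D2:**
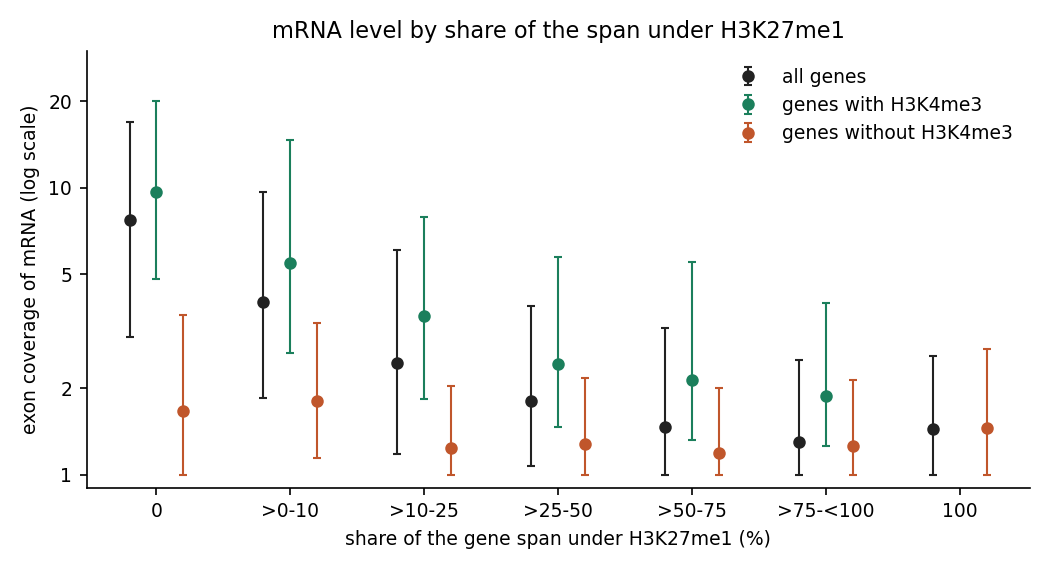
Median exon coverage (vertical axis, log scale) of genes by the share of their span under H3K27me1 in percent (horizontal axis), for all genes, genes with H3K4me3 and genes without it. Points are medians and bars run from the lower to the upper quartile of genes; genes with H3K4me3 have 9.69 without overlap and 1.89 at above 75%, while genes without it stay between 1.19 and 1.81, and the 7 genes with H3K4me3 wholly under H3K27me1 are not drawn.

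Within genes, H3K27me1 covered the middle more densely than the ends. Of the base pairs in the 500 bp at each end, 30.8% lay under it in the 1499 genes with H3K27me1 and a span of at least 2 kb, and of those in the middle 40.1%. Over all 13942 listed genes of this length the values were 3.33% of the ends and 6.24% of the middle. The middle is the larger place, with 5846 kb against 1499 kb of ends in the genes with the mark, and this weighs on any count of genes. Of the 1499 genes, 39.4% had the mark only in the middle and 42.5% had it in the middle and at one end. It lay at both ends and in the middle in 10.6% and at one end only in 7.27%. A single gene, with a coverage of 1, had it at both ends and not in the middle, and 3 genes had too little in any one place to be classed.

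Over all genes of this length, coverage was higher with the mark at one end only than with it in the middle or throughout. Genes with H3K27me1 at one end only had a median of 3.92 (109 genes, quartiles 1.77 and 10.6). Those with it only in the middle had 1.98 (590 genes), those with one end and the middle 1.69 (637 genes), and those with both ends and the middle 1.29 (159 genes). Genes of this length with none of these had 8.17 (12446 genes). The median share of the span under H3K27me1 differed between these classes too, at 12.7% for one end only, 25.1% for the middle only, 44.2% for one end and the middle, and 87.8% for both ends and the middle. Among genes that also carried H3K4me3, the medians were 5.93 at one end only, 2.65 in the middle only, 2.82 at one end and the middle, 1.89 at both ends and the middle (26 genes), and 9.40 with none. Among genes without H3K4me3 they were 1.69, 1.43, 1.14, 1.25 and 1.60 in the same order. In that group, the genes marked at one end only (34 genes, median interval 1.17 to 2.53) did not stand below those with none (1.50 to 1.71).

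The end with H3K4me3, which in plants marks the 5′ part of transcribed genes, was then told from the other end, since the table gives no strand. Of genes of at least 2 kb, 10297 carried H3K4me3 at 1 end alone. In 54 of them H3K27me1 reached that same end, and their median coverage was 1.78. In 198 it reached the opposite end, with a median of 3.05, and in 255 it lay in the middle and at no end, with a median of 2.47. The 9801 genes of this kind without H3K27me1 had a median of 9.60. A mark at the H3K4me3 end was thus rarer than one at the opposite end, 11 genes with both counting in each.

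Genes with both histone marks were split once more by whether the domains themselves overlapped. In 295 genes an H3K27me1 and an H3K4me3 domain shared at least 150 bp, and the median coverage was 2.00 (quartiles 1.29 and 5.03). In 620 genes they shared 0 bp, and the median was 3.33 (quartiles 1.75 and 7.20). The genes with shared stretches were shorter (median 2405 bp, against 4526 bp) and had more of their span under H3K27me1 (49.6%, against 25.7%).

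The average profile showed the same inward placement. Over genes of at least 1 kb listed at exactly 1 (1556 genes), H3K27me1 covered 8.75% of the outermost 5% of the span and 17.0% of the parts next to the midpoint. In the lowest quartile of the other genes these values were 4.06 and 9.55%. They were 1.37 and 2.24% in the next quartile, 0.684 and 1.28% in the third, and 0.641 and 0.711% in the highest, where the profile was nearly flat. In every class H3K27me1 was therefore lower at the gene edge than next to the midpoint, and the gap narrowed as coverage grew.

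Beyond the gene edge, H3K27me1 was low close by and higher farther away, in all 5 classes. In the first 200 bp outside, it covered 6.17% in genes at the lowest value, and 3.02, 1.29, 0.652 and 0.697% in the quartiles low to high. At 1800 to 2000 bp it covered 10.5% in genes at the lowest value and 8.31, 7.14, 7.18 and 7.04% in the quartiles. The classes thus differed clearly at the edge, while at this distance the 3 upper quartiles were nearly equal. Neighbouring genes were not left out of these stretches, so parts of them lie inside other genes. Genes without H3K27me1 lay a median of 388 bp from their nearest unmarked neighbour.

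**Figure D3:**
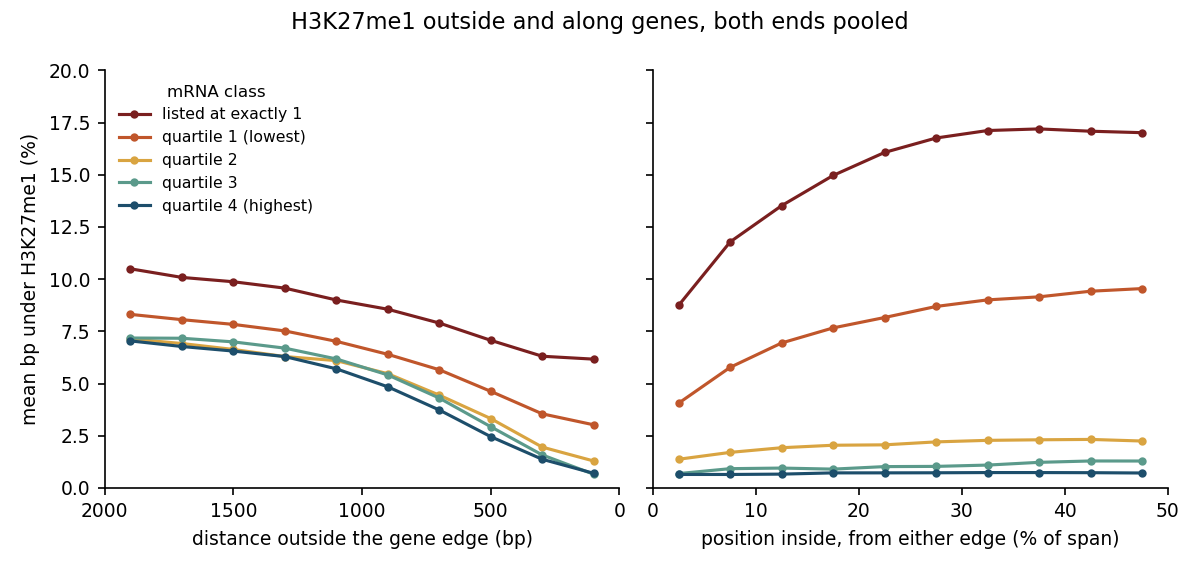
Mean percent of base pairs under H3K27me1 (vertical axis) against distance outside the gene edge in bp (left) and position inside the gene from either edge in percent of the span (right), for genes at a coverage of exactly 1 and quartiles of the other genes of at least 1 kb. Both ends of each gene are pooled; genes at exactly 1 climb from 8.75% at the edge to 17.0% next to the midpoint, and the highest quartile stays between 0.640 and 0.732% inside.

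The width of the domain showed a weak relation to mRNA over all genes with H3K27me1. Genes were sorted by the widest H3K27me1 domain that touched them. Median coverage was 2.09 with domains of up to 600 bp (432 genes), 1.86 at 900 to 1200 bp (696 genes), 1.52 at 1500 to 2100 bp (366 genes), 1.62 at 2400 to 4800 bp (307 genes) and 1.51 at 5100 bp and wider (122 genes). The Spearman correlation over the 1923 genes was -0.105. The log2 ratio of the widest over the narrowest class was -0.47 (interval -0.91 to -0.02). The share of genes listed at exactly 1 rose from class to class, at 19.2, 24.0, 26.2, 29.3 and 34.4%. Its intervals lay apart between the narrowest (15.6 to 23.25%) and the widest class (26.1 to 43.6%), while those of neighbouring classes overlapped. Genes with H3K4me3 had medians of 3.18, 3.20, 1.94, 3.48 and 4.60 over the same classes (38 genes in the last), and genes without it 1.44, 1.27, 1.27, 1.26 and 1.26. The Spearman correlations within these groups were -0.0460 (917 genes) and -0.0456 (1006 genes).

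Wider domains also came with a larger share of the span, 19.9% at the median in the narrowest class and 74.5% in the widest. Among genes with above 25 to 50% of the span marked, medians by width were 1.63, 1.88, 1.61, 2.37 and 1.92 and followed no order. Among those with above 50 to 75% they were 1.04, 1.50, 1.48, 1.48 and 1.58. With the share held within these limits, the medians did not fall with width. Gene length was not held, however, and wider domains lay on longer genes. The median span was 2914.5 bp in the narrowest class and 5495.5 bp in the widest. Width and gene length therefore cannot be told apart here. By number of domains, the medians declined slightly, with values of 1.85 for 1 domain (1499 genes), 1.54 for 2 (309 genes) and 1.45 for 3 or more (115 genes).

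The nesting of domain and gene showed little over all genes but more among those with H3K4me3. Over all touched genes, 1228 held their domains wholly inside and had a median of 1.84, 701 were crossed at an edge and had 1.86, and 69 lay wholly inside a domain and had 1.45. With H3K4me3 the first 2 medians were 2.48 and 4.43, so genes entered from outside stood higher than genes with internal domains. Of the 1923 genes with H3K27me1, however, 1228 held their domains inside and 626 were crossed. The crossed class of 701 thus alone took in the 75 genes touched over less than the minimum of 200 bp. The 48 of these with H3K4me3 had a median coverage of 5.79, and their part in the difference was not tested. The crossed genes with H3K4me3 had 29.3% of the span marked at the median and those with internal domains 31.6%. They differed more in 5mC, which was on 69.0% of the crossed genes and 38.2% of those with internal domains.

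The deposited score per bp, whose meaning is not stated, showed a weak relation to coverage over all genes with H3K27me1. The relation was clearer without the genes at the lowest value. The score per bp ranged from 0.144 to 4.31 with a median of 0.203. From the lowest to the highest quartile of score per bp, median coverage was 1.78, 1.74, 1.64 and 2.04. The Spearman correlation was 0.0546. The log2 ratio of the highest over the lowest quartile was 0.20 (interval -0.12 to 0.66), and 0.62 (interval 0.29 to 0.89) when genes at exactly 1 were left out.

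Among genes with H3K4me3, a higher score per bp went with more mRNA. Their medians were 2.09, 3.002, 2.77 and 4.56 over the same quartiles, with a Spearman correlation of 0.212 (917 genes). Among genes without H3K4me3 the medians were 1.39, 1.28, 1.18 and 1.31, with a correlation of -0.0172. 5mC moved with the score, from 25.6% of genes in the lowest quartile to 82.3% in the highest, and its part in the relation was not tested. The 26 genes whose domains had at least 2 times the median score per bp had a median coverage of 3.35, with quartiles as far apart as 1.12 and 14.6. This small group thus spread from near the lowest value to well above the median of all genes.

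**Figure D4:**
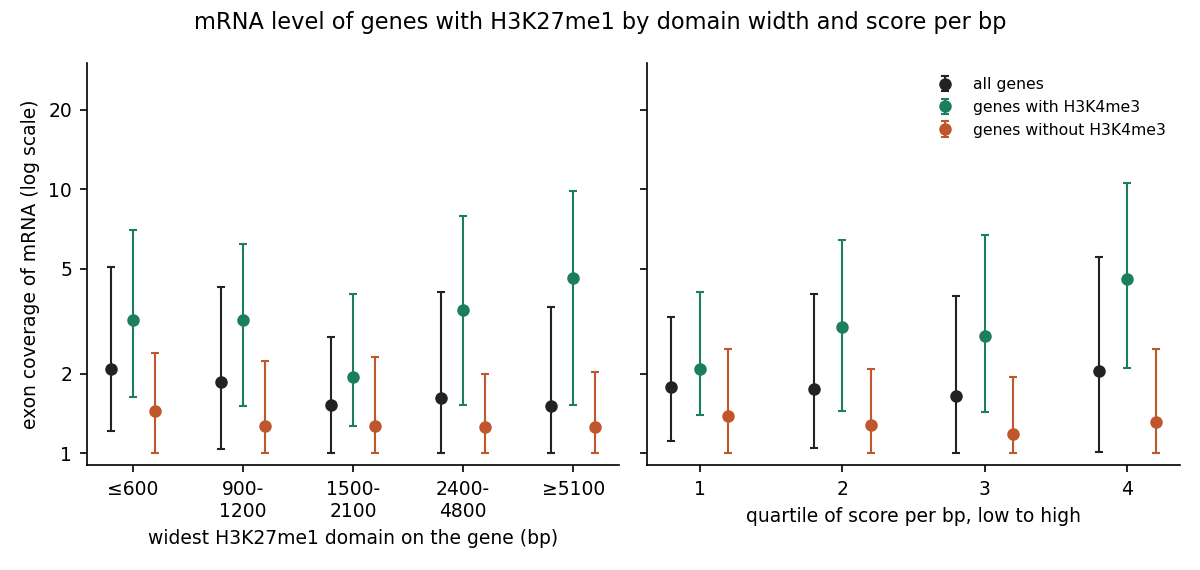
Median exon coverage (vertical axes, log scale) of genes with H3K27me1 by the width of their widest domain in bp (left) and by quartile of score per bp (right), for all genes with the mark and for those with and without H3K4me3. Points are medians and bars run from the lower to the upper quartile of genes; over all genes the medians stay between 1.51 and 2.09 by width and between 1.64 and 2.04 by score per bp.

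Over all genes without H3K27me1, those close to a domain had about the same mRNA level as those far from one. Genes without the mark were sorted by the distance of their span to the nearest domain. Median coverage was 7.53 within 500 bp (1035 genes), 7.90 from there to 1 kb (1344 genes) and 7.96 at 1 to 2 kb (2031 genes). It was 7.62 at 2 to 5 kb (4283 genes), 7.54 at 5 to 10 kb (4465 genes), 8.09 at 10 to 50 kb (8098 genes) and 7.83 beyond 50 kb (686 genes). The values followed no order, and the Spearman correlation of coverage with distance over 21942 genes was 0.0116.

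The 75 genes touched over less than the minimum stood apart from these. Their median was 4.28 (quartiles 1.70 and 11.4), between that of genes with H3K27me1 and that of untouched genes. Just inside the limit, the 32 genes with at least 200 but under 300 bp under the mark, or a shorter span wholly under it, had a median of 2.90, and just outside, the 27 genes with 100 to under 200 bp had 2.50. No step in coverage was thus seen at the minimum. Groups of 32 and 27 genes are too small to exclude one, and the 27 are only part of the 75.

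Among genes with H3K4me3 the series was again flat, and among those without it the nearest genes were slightly the lower. From near to far, genes with H3K4me3 had medians of 9.09, 9.74, 9.91, 9.65, 9.42, 10.01 and 9.49, and genes without it 1.50, 1.54, 1.62, 1.57, 1.69, 1.71 and 1.87. The Spearman correlations with distance were 0.0122 (17953 genes) and 0.0401 (3989 genes). Without H3K4me3, the log2 ratio of genes within 500 bp over those beyond 50 kb was -0.32. Its range from the interval limits of both medians, -0.79 to 0.20, included 0. Within 500 bp the median was lower than beyond 10 kb on 6 of the 8 main scaffolds and higher on 2. In 100 kb windows with at most the median gene density the medians ran from 7.24 to 7.89, and in windows above it from 7.68 to 8.76. On small scaffolds without any H3K27me1 domain, 316 genes had a lower median, 4.03, and 56.6% of them carried H3K4me3.

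**Figure D5:**
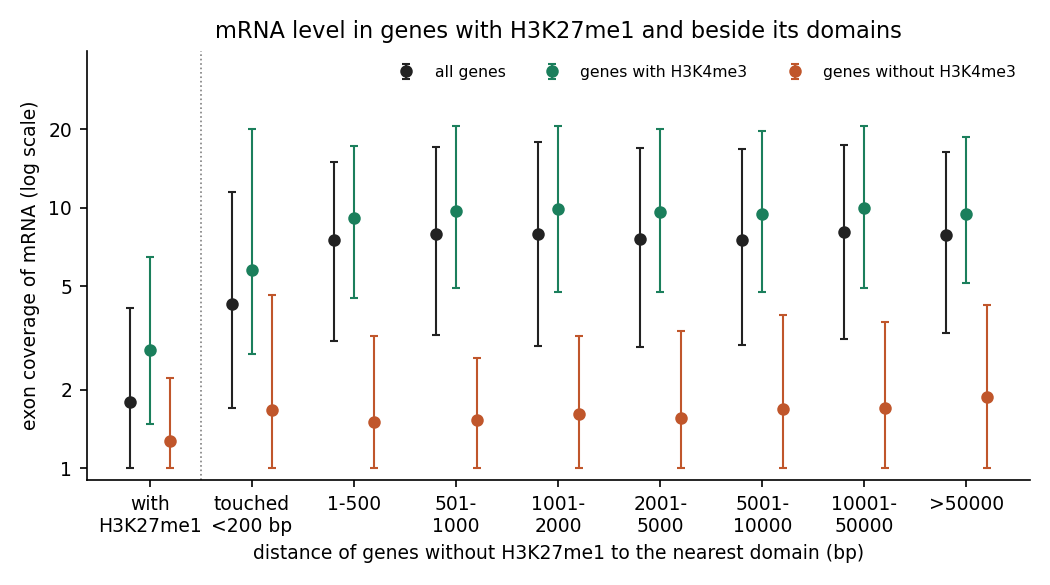
Median exon coverage (vertical axis, log scale) of genes with H3K27me1, left of the dotted line, and of genes without it by distance to the nearest domain in bp, right of the line, for all genes, genes with H3K4me3 and genes without it. Points are medians and bars run from the lower to the upper quartile of genes; the genes with the mark have a median of 1.79, those touched over less than 200 bp 4.28, and the 7 classes of distance lie between 7.53 and 8.09.

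Seen from the domains, those inside genes were narrower than those that touched none, and those that crossed an edge or covered a gene were wider. The classes set part of this order. A domain inside a gene cannot exceed the gene, and one over a whole gene cannot be shorter than it. Of 17701 domains, 2505 (14.2%) touched a listed gene, with a median width of 900 bp, against 1200 bp for the 15196 that touched none. Of these, 1777 lay inside a gene (median 900 bp), 666 crossed a gene edge (median 1500 bp) and 62 covered a whole gene (median 3300 bp). Score per bp was lowest in the domains inside genes, 0.198 at the median, with 0.214 in those across an edge, 0.261 in those over a whole gene and 0.213 in those touching none. In all, 3155 kb of the 34710 kb under H3K27me1 lay in listed genes. Genes that the table does not list count as outside.

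The 192 genes with H3K27me1 and a coverage of at least 10 differed from the other 1731 in length, in the share marked and in H3K4me3. They were longer (median 4395 bp, against 3204 bp), had less of the span under the mark (31.3%, against 42.2%) and carried H3K4me3 more often (78.1%, against 44.3%). Of those with a span of at least 2 kb, 17.5% had H3K27me1 at one end only (28 of 160, interval 12.0 to 24.3%), against 3.39% of the genes with H3K27me1 at a coverage of exactly 1 (12 of 354, interval 1.76 to 5.85%). Both ends and the middle were marked in 6.25% of these expressed genes, against 17.2% of those at the lowest value. The nesting was nearly the same, with domains wholly inside 58.9% of the genes at 10 or more and 57.3% of those at the lowest value, and across an edge of 38.5 and 37.4%. Of the 192 genes, 137 carried 5mC. Among genes with H3K27me1, 13.0% of those with 5mC and 6.32% of those without 5mC had a coverage of at least 10. Among genes without H3K27me1 these shares were 35.7 and 41.6%.

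A few genes gave much mRNA although most of their span lay under H3K27me1. The highest coverage among genes with at least 50% of the span marked was 294, in a gene of 5415 bp on scaffold 5 (3992128 to 3997542). H3K27me1 lay over 66.5% of it in 2 domains, and H3K4me3 over 41.1%. The next were a gene of 13229 bp on scaffold 1 (17547104 to 17560332) with a coverage of 83.7 and 85.4% of the span marked, and one close by on the same scaffold (17526934 to 17533025) with a coverage of 78.2 and 68.4% marked. Both carried H3K4me3 over a small part of the span and 5mC over 74.8 and 73.3% of it. The fifth, on scaffold 8 (10132592 to 10137504), had a coverage of 59.4 with 53.1% of the span marked.

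Of the genes wholly under H3K27me1, AL8G27860 had the highest coverage, 69.7. It spans 2740 bp on scaffold 8 (15998189 to 16000928), inside a domain of 3600 bp, with 5mC over the whole span and no H3K4me3. The next was AL5G12080 on scaffold 5 (1139613 to 1141833), with a coverage of 38.3 inside a domain of 16200 bp, and with neither H3K4me3 nor 5mC. At the opposite end, 2 genes far from any H3K27me1 were nonetheless listed at exactly 1. AL2G37750 on scaffold 2 (18416622 to 18422136) lay 82764 bp from the nearest domain, and AL8G14120 on scaffold 8 (2736272 to 2741685) lay 54915 bp from it, and both carried H3K27me3. The files give no name or function for these genes.

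The widest domains on genes and those with the highest score per bp differed in the mRNA beneath them. The widest, 23.7 kb on scaffold 7 (19149601 to 19173300), touched 3 genes with coverages of 8.59, 2.46 and 1. The others, of 21.3 kb on scaffold 7 (17653201 to 17674500) and 19.2 kb on scaffold 5 (1181401 to 1200600), each touched 1 gene, and both genes were listed at exactly 1. By contrast, the highest score per bp, 4.31, was in a domain of 900 bp on scaffold 5 (12882301 to 12883200). It crossed the edge of a gene with a coverage of 4.56. The next, 600 bp on scaffold 7 (24227101 to 24227700) with 2.22 per bp, lay inside a gene with a coverage of 31.1. The one after it, 12.6 kb on scaffold 5 (1074301 to 1086900) with 2.00 per bp, reached into a gene with a coverage of 139.9. All 3 of these genes carried H3K4me3, and none of the genes under the widest domains did except that with 8.59.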

How the data were processed

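Groups were taken from the sample titles. The authors deposited 1 list of H3K27me1 domains, each with a whole-number score of unstated meaning, and for the mRNA library 1 table of mean exon coverage (signal) per gene. Per the submitters' processing notes, Bowtie and SICER were used, with no version stated. Not given in the sources used here are the calling settings, the genome build, the coverage normalization and any pooling of replicates, and depth is unknown. A coverage of exactly 1 may stand for different numbers of reads. Domain edges lie on a 300 bp grid, which limits ends and shares of short genes.

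Domains were laid on gene spans, in positions counted from 1, with Python 3.11.15, numpy 2.4.6, pandas 2.3.3 and scipy 1.17.1, tested on simulated intervals. Score per bp was averaged over the touching domains by overlap. H3K4me3, H3K27me3 and 5mC were assigned by the same minimum of 200 bp. Both gene ends were pooled because strand is absent. Intervals of shares are exact (Clopper-Pearson, 95%) and cover counting error only. Those of medians are order-statistic intervals over genes, which are not replicates. Intervals of log2 ratios set the lower limit of one median against the upper limit of the other. They are therefore wider than a 95% interval of the ratio.

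The classes, gene groups and rules were chosen with earlier results of these data known. The rule for named items took 2 genes with the highest coverage wholly under H3K27me1, and 2 with the lowest coverage (longest spans first) at least 50 kb from a domain. It also took the 5 highest with at least 50% of the span marked. Of the domains on genes, it took the 3 widest and the 3 with the highest score per bp. Names and sequences were not used here.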

Additional observations from a re-analysis of the deposited data

How the results depend on the processing

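No paired analysis was possible because no file used here gives values per replicate, and leaving out a replicate could not be run for the same reason. Genes of 2 to 4 kb, genes with and without H3K4me3, and a minimum of 200 bp for the share classes were chosen after seeing the data. Of the recomputed main values, 70 stayed within their interval, 33 moved beyond it and 1 turned round. The share classes used no minimum to begin with. Any overlap of 1 bp, the 8 main scaffolds alone, leaving out overlapping genes and keeping the scaffold 3 stretch moved none of them.

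When 50% of the span had to lie under domains, 3.07% of genes carried H3K27me1. Their median was 1.43, against 7.32 without (log2 ratio -2.36), and 33.2% were at exactly 1. With the 50% of domains with the highest score the values were 3.66%, medians 1.62 and 7.35, and 28.4% at exactly 1, and 9.66% of the lowest decile carried the mark. Without genes at exactly 1 they were 6.49%, 2.44 and 8.54 (log2 ratio -1.81). Among genes of 2 to 4 kb, 7.30% carried the mark, 22.3% in the lowest decile, and the median without it was 8.22.

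Among genes with H3K4me3, 4.80% carried H3K27me1, 16.1% in the lowest decile. Medians were 2.85 with and 9.68 without it (log2 ratio -1.76), and 10.4% of those with it were at exactly 1. The log2 ratio of the widest over the narrowest domains was 0.53 there (interval -0.96 to 1.75), against -0.47 over all genes, and that of the highest over the lowest quartile of score per bp 1.05, against 0.20. Among genes without H3K4me3, the shares were 19.5% and 22.5%, the medians 1.28 and 1.66 (log2 ratio -0.38), and 38.1% were at exactly 1. There the log2 ratio of above 75% over up to 10% of the span was -0.51, against -1.60 over all genes, and that of both ends and middle over one end -0.43, against -1.61. Measured from the middle of the span, genes within 500 bp of a domain over those beyond 50 kb gave -1.81, against -0.06 between edges. Only 45 genes, with a median span of 621 bp, lay that close, and 19 of them were touched by the domain. The causes of the other changes were not tested.

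With 1 mRNA library of unknown depth and many values at the floor, differences among the lowest genes could not be resolved.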

Other observations

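A gene with H3K27me1 was followed by another more often than a gene without it was. The next listed gene along the scaffold also carried the mark after 304 of 1901 genes with H3K27me1 (16.0%, exact interval 14.4 to 17.7%), and after 1598 of 22040 genes without it (7.25%, interval 6.91 to 7.60%). Most genes with the mark stood alone, in 1379 runs of 1 gene, while 544 genes formed 240 runs of 2 or more. The longest run held 7 genes on scaffold 5 (1085553 to 1161348), with coverages from 1 to 139.9 and a median of 30.02. The next held 6 genes on scaffold 4 (22072194 to 22086639), with coverages from 1 to 11.8 and a median of 5.44. A run of 5 genes on scaffold 5 (1193673 to 1223698) had a median of 1 and reached no more than 1.84. These 3 runs thus differed widely in their coverage. The domain of 12.6 kb with 2.00 score per bp described above begins the first of these runs, and AL5G12080 lies within it.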
